A study of Mus musculus with 6 samples.

Results

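Described here are 9 genes of the mitochondrial cell death pathway: the anti-apoptotic Bcl2, Bcl2l1 and Mcl1, the pro-apoptotic BH3-only genes Bcl2l11 and Bid, the pore-forming effectors Bax and Bak1, and the apoptosome genes Apaf1 and Casp9. They were chosen by name. Of the probe sets that the array annotation assigns to one of these genes alone, the set with the highest mean stood for the gene and the others served as a check. The annotation used here paired 8 of the 9 genes with 30 probe sets. It paired none with Bax, which was not analysed here. All 8 passed the filter on low values, among 13015 genes tested of 18193 with a probe set.

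RNA came from 3 auditory nuclei of the mouse brainstem. The ventral cochlear nucleus (VCN) is the first central relay of the auditory nerve. Both the LSO (the lateral superior olive) and the MNTB (the medial nucleus within the trapezoid body) receive input from the cochlear nuclei. All mice were male C57BL/6J, at postnatal day 14 (P14), shortly after hearing begins, or at postnatal day 3 (P3), before it. Each of the 6 arrays held 1 pool of dissected tissue, from 3 animals at P14 and from 6 at P3, and the labels name no surgery, mutation or drug. No nucleus had a second array at an age. The error of each test below combines how far the nuclei disagree about the age change (2 degrees of freedom) with the variance that limma takes from genes of like intensity (4 prior degrees of freedom). Its p-value says how regularly a change recurred over nuclei or ages, with no measure of how animals differ. Pool size went with age and cannot be told apart from it.

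In the mitochondrial pathway, BH3-only proteins sense damage or loss of trophic support and activate BAX and BAK, which open pores in the outer mitochondrial membrane. BCL-2, BCL-XL and MCL-1 bind these proteins and hold the pores shut. Cytochrome c that escapes assembles with APAF1 into the apoptosome, which activates caspase-9. Many neurons of the mouse cochlear nucleus die when the cochlea is removed in the neonatal period but survive its removal later, and forced expression of BCL-2 in transgenic mice protects them. The comparisons give the RNA level of the pathway at P3, within the neonatal period, against the later P14, and in VCN against LSO and MNTB.

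Between the ages, 5 of the 8 genes passed the test. Bcl2, Apaf1, Bid and Casp9 fell and Bcl2l1 rose. Between VCN and the other nuclei, 0 of the 8 passed. The test was limma with age and nucleus as terms, and p-values were adjusted over all 13015 genes (Benjamini-Hochberg). Of all tested genes 41.1% passed for age, 23.4% higher and 17.7% lower at P14, so a call for age is common on these arrays. The median age difference was -0.31 log2 units over the 8 genes and 0.03 over all tested genes. The P14 and P3 arrays did not overlap for 6 of the 8 genes, 2 higher and 4 lower at P14. The same held for 53.8% of all tested genes, 30.3% higher and 23.4% lower. In bulk tissue, fewer cells of a type and less RNA per cell cannot be told apart.

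**Figure D1:**
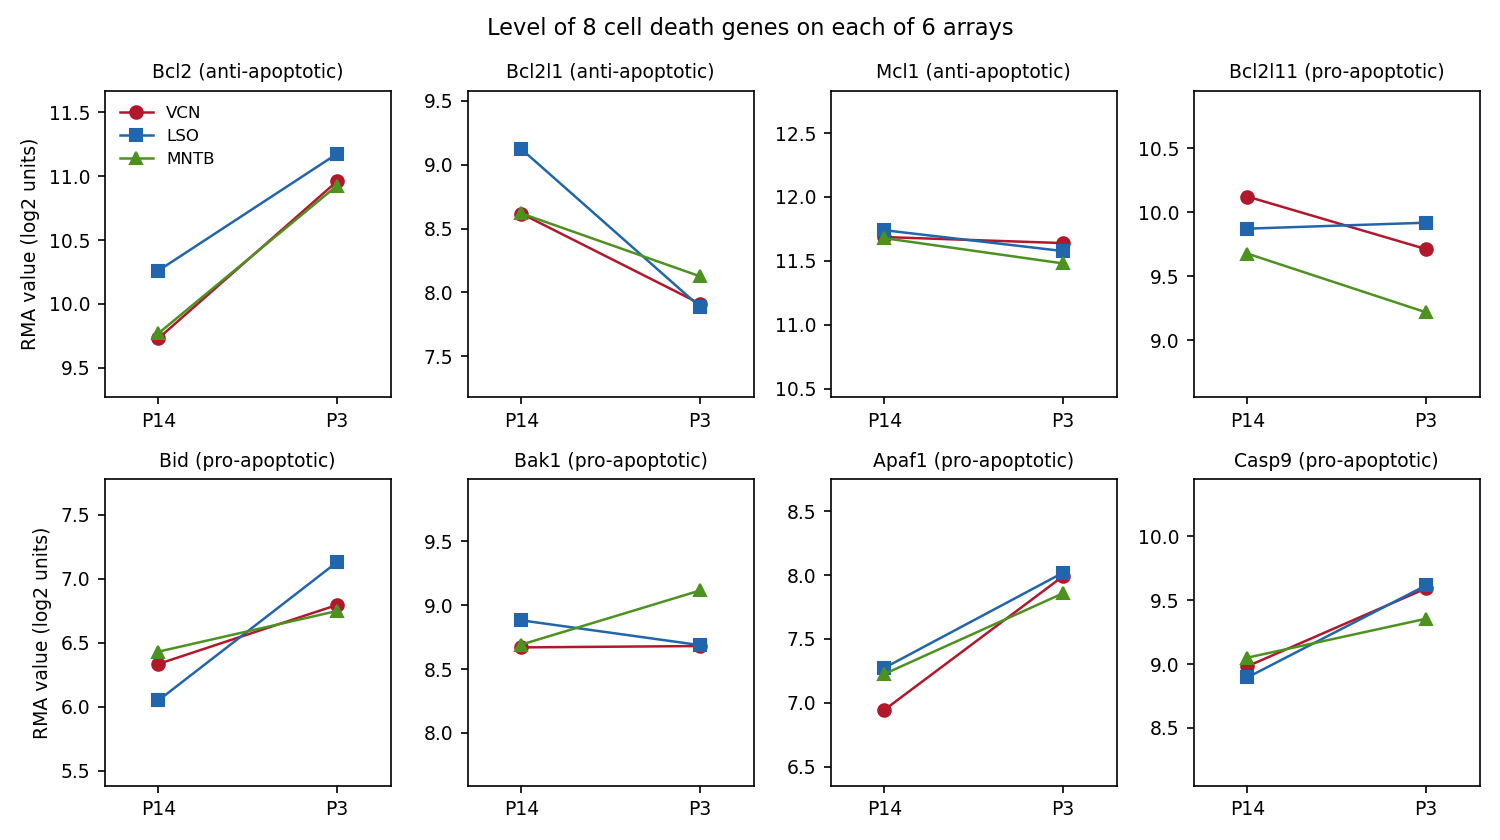
RMA values in log2 units (vertical axes, each spanning the same width) of 8 genes on the P14 and P3 arrays, with 1 line for each nucleus. Bcl2 at P14 sits between 9.73 and 10.26, below its P3 values of 10.93 to 11.18, whereas Bcl2l1 at P14 sits between 8.62 and 9.12, above its P3 values of 7.89 to 8.13.

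Of the anti-apoptotic genes, 1 fell, 1 rose and 1 did not pass. Bcl2, whose protein guards the outer mitochondrial membrane, had P14 values of 9.73 log2 units in VCN, 10.26 in LSO and 9.77 in MNTB, against P3 values of 10.96 in VCN, 11.18 in LSO and 10.93 in MNTB. All P14 arrays lay below all P3 arrays, and LSO was the highest nucleus at both ages. Bcl2 fell by 1.10 ± 0.09 log2 units (standard error, 3 nuclei), a ratio of P14 to P3 of 0.466 (adjusted p = 0.000717, limma). A difference at least this large was seen for 8.62% of tested genes. All 3 of its probe sets that passed the filter had a negative difference. The other 2 were too low to serve as a check, 1 of them within the range of the unspiked bacterial controls on all 6 arrays. Taking the median of all 5 on each array, the difference was -0.45 (adjusted p = 0.0342), less than the chosen set gave.

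Promoter windows are printed for 3 of the genes that fell and for Bcl2l1, which rose, so that their sequences can be set beside their values. A window runs from 250 bases before to 50 after an annotated start (RefSeq, build GRCm38.p6). Capitals mark the GC box, GGGCGG or CCGCCC on the opposite strand, the sequence that Sp1 binds.
Bcl2, chr1:106714241-106714540, minus strand: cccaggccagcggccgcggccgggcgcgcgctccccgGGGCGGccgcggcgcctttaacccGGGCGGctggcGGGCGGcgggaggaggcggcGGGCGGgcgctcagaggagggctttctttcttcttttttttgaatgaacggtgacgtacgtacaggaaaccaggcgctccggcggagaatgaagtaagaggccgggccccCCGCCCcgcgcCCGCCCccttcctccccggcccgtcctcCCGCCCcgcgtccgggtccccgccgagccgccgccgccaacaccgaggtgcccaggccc
Apaf1, chr10:91082694-91082993, minus strand: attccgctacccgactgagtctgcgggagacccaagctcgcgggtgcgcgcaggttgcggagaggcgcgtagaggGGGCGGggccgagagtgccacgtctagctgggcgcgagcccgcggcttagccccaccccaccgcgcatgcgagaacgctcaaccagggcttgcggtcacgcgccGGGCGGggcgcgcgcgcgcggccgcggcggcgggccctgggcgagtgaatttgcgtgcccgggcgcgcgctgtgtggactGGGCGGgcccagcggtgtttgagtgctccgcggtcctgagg
Casp9, chr4:141793362-141793661, plus strand: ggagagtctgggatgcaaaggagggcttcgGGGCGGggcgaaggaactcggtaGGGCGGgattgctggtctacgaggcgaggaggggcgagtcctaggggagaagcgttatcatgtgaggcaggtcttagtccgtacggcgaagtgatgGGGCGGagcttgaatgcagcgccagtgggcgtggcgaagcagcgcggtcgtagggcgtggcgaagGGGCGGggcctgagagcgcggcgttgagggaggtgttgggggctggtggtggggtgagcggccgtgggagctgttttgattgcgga
Bcl2l1, chr2:152831679-152831978, minus strand: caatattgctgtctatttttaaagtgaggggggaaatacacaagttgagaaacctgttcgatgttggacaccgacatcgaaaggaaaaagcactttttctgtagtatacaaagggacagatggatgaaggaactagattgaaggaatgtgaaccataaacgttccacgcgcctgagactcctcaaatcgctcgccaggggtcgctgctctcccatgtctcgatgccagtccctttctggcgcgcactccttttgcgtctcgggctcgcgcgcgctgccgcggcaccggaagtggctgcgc
The Bcl2 window held 7 GC boxes, that of Apaf1 3 and that of Casp9 4. Bcl2l1 has 3 windows in the table, and none held one; the window printed is the farthest upstream. The GC content was 76.0% for Bcl2, 74.7% for Apaf1, 66.0% for Casp9 and 52.3% for the printed window of Bcl2l1, against a median of 52.7% over all 32851 windows. That median also covers genes that were not tested here, and the GC content of tested genes alone was not computed.

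Bcl2l1, which encodes the survival protein BCL-XL, moved the other way from Bcl2. Its P14 values were 8.62 in VCN, 9.12 in LSO and 8.62 in MNTB, against P3 values of 7.91 in VCN, 7.89 in LSO and 8.13 in MNTB. The ages did not overlap, and LSO differed most. Bcl2l1 rose by 0.81 ± 0.16 log2 units, a ratio of 1.76 (adjusted p = 0.0109, limma). By nucleus, VCN gave 0.71, LSO 1.24 and MNTB 0.49. With each of 27000 probe sets tested as a feature of its own, a second Bcl2l1 set rose by 0.90 ± 0.20 (adjusted p = 0.0144, limma). Another, at 0.28, did not pass (adjusted p = 0.0912), and the last lay within that control range (2.84 to 4.42) on all 6 arrays. The gene is also spliced to a short, pro-apoptotic form. The chosen set has a name ending in _a_at, which marks probes for several transcripts of a gene, and the forms were not separated here.

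Mcl1, a short-lived survival protein of the same family, differed least among the anti-apoptotic genes. Its P14 values were 11.69 in VCN, 11.74 in LSO and 11.68 in MNTB, against P3 values of 11.64 in VCN, 11.58 in LSO and 11.48 in MNTB. The ages did not overlap, but the gap between them was 0.04 log2 units. The difference was 0.14 ± 0.07 and did not pass (adjusted p = 0.148, limma). The chosen set has a name ending in _x_at, which marks probes that may bind other sequences. Leaving such sets out, the next one passed at 0.27 (adjusted p = 0.0405), as did the median of all sets at 0.25 (adjusted p = 0.0419). All 6 Mcl1 sets had a positive difference, of 0.14 to 0.30.

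Of the BH3-only genes, 1 fell and 1 did not pass. Bcl2l11 encodes BIM, which is tied to the death of neurons deprived of trophic support. Its P14 values were 10.12 in VCN, 9.87 in LSO and 9.68 in MNTB, against P3 values of 9.71 in VCN, 9.92 in LSO and 9.22 in MNTB. The ages overlapped: VCN and MNTB were higher at P14, while LSO differed by -0.05. The difference of 0.28 ± 0.13 log2 units did not pass (adjusted p = 0.131, limma). Dropping either array of a nucleus leaves the age change to the other 2 nuclei, so both fits give the same estimate of it. Without LSO at P14 or at P3, Bcl2l11 passed at 0.44 (adjusted p = 0.0481 and 0.0493, limma). The median of its 5 probe sets gave -0.04 (adjusted p = 0.865).

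Bid, which links death receptors to mitochondria once it is cleaved, averaged 6.58 over the arrays, near the filter of 5.57. Its P14 values were 6.33 in VCN, 6.05 in LSO and 6.43 in MNTB, against P3 values of 6.80 in VCN, 7.13 in LSO and 6.75 in MNTB. The ages did not overlap, and LSO differed most. Bid fell by 0.62 ± 0.18 log2 units, a ratio of 0.650 (adjusted p = 0.0363, limma). The call needed the LSO and MNTB arrays. Without LSO at P14 or P3 the difference was -0.39 (adjusted p = 0.145 and 0.148), and without MNTB at P14 or P3 it was -0.77 (adjusted p = 0.0516 and 0.0519). Only 1 of its 3 probe sets passed the filter.

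Bak1, which forms pores beside BAX, did not pass. Its P14 values were 8.67 in VCN, 8.88 in LSO and 8.69 in MNTB, against P3 values of 8.68 in VCN, 8.69 in LSO and 9.12 in MNTB. The ages overlapped, and MNTB at P3 was the highest array. The difference was -0.08 ± 0.14 log2 units (95% interval -0.43 to 0.27, adjusted p = 0.684, limma). The second set of Bak1 gave 0.23 and did not pass either (adjusted p = 0.134 over 27000 probe sets). The chosen set has a name ending in _s_at, which marks probes shared by several transcripts.

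Both apoptosome genes fell. Apaf1, the scaffold that binds cytochrome c, had P14 values of 6.94 in VCN, 7.27 in LSO and 7.23 in MNTB, against P3 values of 7.99 in VCN, 8.02 in LSO and 7.86 in MNTB. Every P14 array lay at least 0.58 log2 units below every P3 array. Apaf1 fell by 0.81 ± 0.13 log2 units, a ratio of 0.571 (adjusted p = 0.00543, limma), and passed in all 6 fits that left out 1 array. Its other probe set, at -0.57, did not pass (adjusted p = 0.0709 over 27000 probe sets). Casp9 is the initiator caspase that the apoptosome activates. Its P14 values were 8.98 in VCN, 8.89 in LSO and 9.05 in MNTB, against P3 values of 9.59 in VCN, 9.62 in LSO and 9.35 in MNTB. The ages did not overlap. Casp9 fell by 0.55 ± 0.12 log2 units, a ratio of 0.685 (adjusted p = 0.0131, limma). Without LSO at P14 or P3 the difference was -0.46 and did not pass (adjusted p = 0.0695 and 0.0735). The other sets of Casp9 gave -0.12 and -0.11, and the median of the 3 sets did not pass (-0.12, adjusted p = 0.409).

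**Figure D2:**
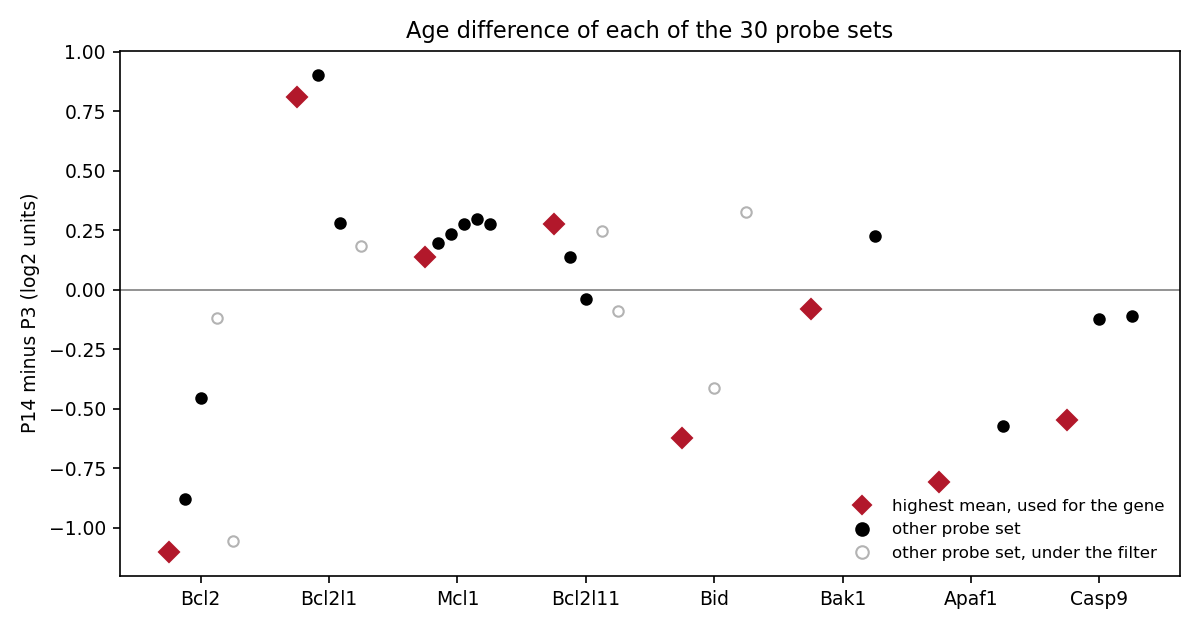
Difference of P14 minus P3 in log2 units (vertical axis) for each of the 30 probe sets of 8 genes. Diamonds are the sets of highest mean, and open circles are sets under the filter. Of the sets that passed the filter, all 3 of Bcl2 are negative, all 3 of Bcl2l1 and all 6 of Mcl1 are positive, and the lower sets of Casp9, at -0.12 and -0.11, lie closer to 0 than the set used, at -0.55.

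GC boxes stood in the windows of all 4 genes that fell, with 3 in that of Bid. They also stood in those of Mcl1 (1 box) and of Bcl2l11 (3 in each of 2 windows), which did not pass, while the window of Bak1 held 0. Of all windows 35.7% hold a GC box on either strand. Per gene, a window with one was found for 72.8% of the tested genes that were lower at P14, 69.1% of those higher and 66.1% of those that did not pass. Other motifs were searched on both strands of the same windows. The E2F site was searched as TTTCGCGC (0.323% of all windows) and TTTGGCGC (0.514%), and 1 window of Bcl2l1 held the first. The cyclic AMP response element TGACGTCA (1.79%) was in no window of the 9 genes, and its core TGACG (20.8%), which it contains, was in those of Bcl2 and Mcl1. The FOXO site GTAAACA (3.65%) and the box CCAAT (37.4%) were found for Bcl2l11 alone among the 9. These are matches of letters and not measured binding.

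By side, the 5 pro-apoptotic genes tested gave 3 falls and no rise, with a median difference of -0.55 log2 units. The 3 anti-apoptotic genes gave 1 fall and 1 rise, with a median of 0.14. Of all tested genes 17.7% were called lower and 23.4% higher at P14, with a median of 0.03. Among the pro-apoptotic falls, Bid passed in 2 and Casp9 in 4 of the 6 fits without 1 array. Bax, also pro-apoptotic, was not analysed. Whether the sides differ was not tested. The medians of the 2 sides are the values of the chosen sets of Casp9, whose other sets gave -0.12 and -0.11, and of Mcl1. Within the nuclei, the pro-apoptotic genes had a median of -0.46 for VCN, -0.72 for LSO and -0.32 for MNTB. The anti-apoptotic genes had 0.05 for VCN, 0.16 for LSO and 0.20 for MNTB, with Bcl2 against the other two in each nucleus. Whether the age change differed between nuclei could not be tested with 1 array for each nucleus and age. The age change in VCN minus the mean of those in LSO and MNTB lay between -0.36 (Apaf1) and 0.24 (Bid). For 0 of the 8 genes did it reach 0.5 log2 units either way, as it did for 15.3% of tested genes.

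**Figure D3:**
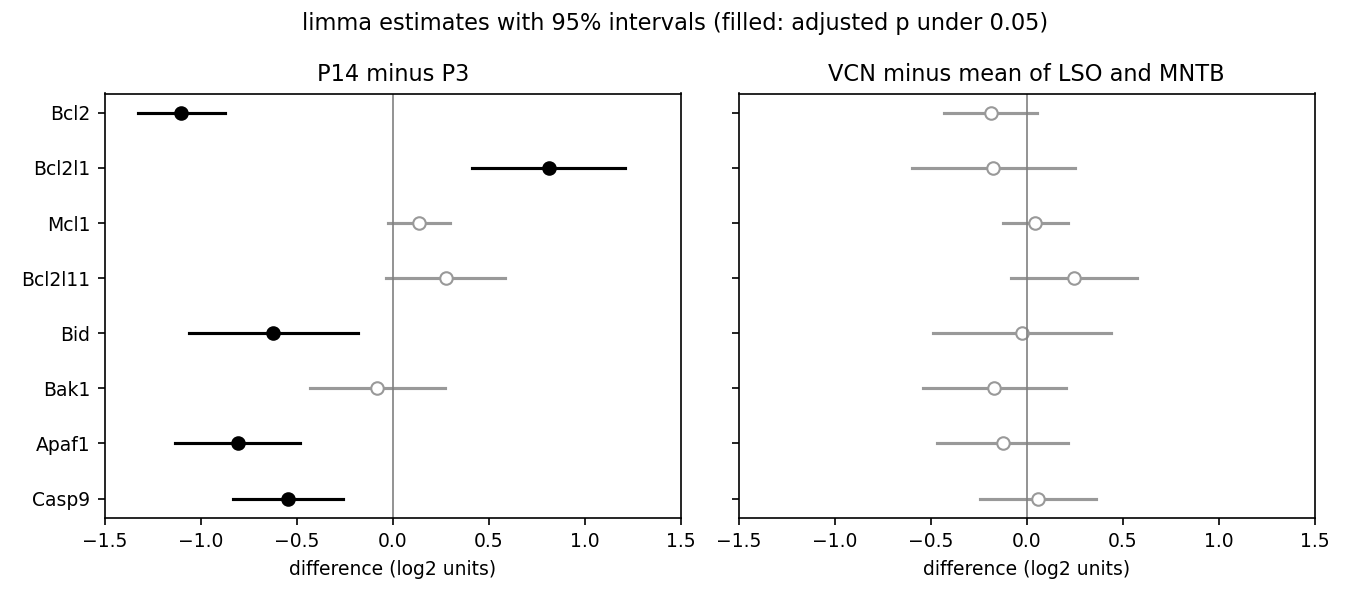
Estimates of limma with 95% intervals (horizontal axes, log2 units) for P14 minus P3 on the left and VCN minus the mean of LSO and MNTB on the right. Filled points passed after adjustment. For age 5 of 8 are filled, and for VCN 0 are, with estimates between -0.19 and 0.25.

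Between VCN and the mean of LSO and MNTB over both ages, differences lay between -0.19 (Bcl2) and 0.25 (Bcl2l11). In limma 0 of 8 genes passed, and 0 had an unadjusted p under 0.05. Of all tested genes 0.653% passed in this contrast, so a count of 0 of 8 is near the background. The 95% intervals of the 8 differences together spanned -0.60 to 0.57 log2 units and were not adjusted for the number of genes. A difference inside those bounds, or beyond them, could go undetected with 6 arrays. Of the marker genes described below, Slc32a1 passed at -1.40, while Slc6a5 at -1.44 did not (adjusted p = 0.0538, limma). Bcl2 averaged 10.35 in VCN and 10.53 in LSO and MNTB, with an interval of -0.43 to 0.05 for the difference, which lay between -0.28 (without VCN at P3) and -0.09 (without VCN at P14) when 1 array was left out. Bcl2l11 averaged 9.92 in VCN and 9.67 in LSO and MNTB, with an interval of -0.08 to 0.57, and the difference lay between 0.13 (without LSO at P14) and 0.37 (without LSO at P3) when 1 array was left out.

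In each contrast of VCN with 1 other nucleus, 1 gene had an unadjusted p under 0.05 in limma and 0 passed. Bcl2 was at -0.37 ± 0.11 log2 units in VCN minus LSO (adjusted p = 0.392, limma), a contrast in which 0.369% of tested genes passed. Without 1 array it lay between -0.51 (without LSO at P3) and -0.23 (without LSO at P14). Bcl2l11 was at 0.47 ± 0.15 in VCN minus MNTB (adjusted p = 0.397, limma), a contrast in which 0.638% passed.

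At P3, within the neonatal period, VCN lay between LSO and MNTB for 6 of the 8 genes. It was the lowest nucleus for Bak1, by -0.22 log2 units from the mean of the other two, and the highest for Mcl1, by 0.11. The 8 differences lay between -0.22 and 0.14, and 0 reached 0.5 log2 units, against 9.49% of tested genes. At P14, VCN was the lowest nucleus for Bcl2, Bcl2l1, Bak1 and Apaf1 and the highest for Bcl2l11. Those differences lay between -0.31 (Apaf1) and 0.35 (Bcl2l11), and 0 reached 0.5, against 8.49% of tested genes. These single-age values have no test.

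The labelled nuclei were checked against markers of their neurons. All 3 tested genes of glutamatergic neurons were higher in VCN. Neurod1, a transcription factor gene, was higher by 3.97 ± 0.22 log2 units (adjusted p = 0.00326, limma). Atoh7 was at 3.66 ± 0.39 (adjusted p = 0.0195) and Slc17a6, a glutamate transporter gene, at 1.91 ± 0.24 (adjusted p = 0.0352). Neurod1 passed in all 6 fits without 1 array. Atoh7 was lost without LSO at P14 or P3 (3.96 and 3.36, adjusted p = 0.0524 and 0.0833, limma). Slc17a6 was lost without those arrays (2.02 and 1.81, adjusted p = 0.106 and 0.147) and without VCN at P14 (1.59, adjusted p = 0.0656, limma). All 4 tested genes of glycinergic and GABAergic neurons had a negative difference, and 1 of them passed. That was the vesicular transporter gene Slc32a1 (-1.40 ± 0.10, adjusted p = 0.0061, limma). Slc6a5, the glycine transporter gene, was at -1.44 (adjusted p = 0.0538), Gad2 at -1.40 (adjusted p = 0.0774) and Gad1 at -0.73 (adjusted p = 0.382). Array medians lay between 6.27 and 6.31.

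Other cell types differed between the ages as well. All 7 tested oligodendrocyte genes rose, with a summed level of 15.62 to 15.74 log2 units at P14 and 13.40 to 14.44 at P3. At P3 this level also differed between nuclei, at 14.44 in VCN, 13.40 in LSO and 13.73 in MNTB. Of 7 endothelial genes 6 rose (11.82 to 11.93 at P14, 10.94 to 11.29 at P3), and of 7 microglial genes 5 rose (12.27 to 12.54 at P14, 11.66 to 12.12 at P3). All 6 genes of dividing cells fell (10.64 to 11.17 at P14, 11.89 to 12.12 at P3). The neuron list was mixed: of 8 neuron genes 2 rose and 4 fell (15.24 to 15.51 at P14, 15.25 to 15.56 at P3). Of 7 astrocyte genes 4 rose and 2 fell (14.67 to 14.87 at P14, 14.23 to 14.48 at P3). Of 6 oligodendrocyte precursor genes, 4 were higher and 1 lower (13.16 to 13.52 at P14, 12.82 to 13.14 at P3). Both red blood cell genes tested rose (7.69 to 7.98 at P14, 6.80 to 7.14 at P3), and of 4 choroid plexus and meningeal genes 3 rose (9.97 to 12.84 at P14, 8.16 to 8.45 at P3). The Gapdh 3' minus 5' signal, which reflects RNA integrity, was 1.06 to 1.11 at P14 and 1.21 to 1.41 at P3. The part of these differences in the changes of the 8 genes, or in their values between nuclei, was not tested. Ttr, a choroid plexus gene, reached 12.58 on the VCN array of P14 and lay between 6.61 and 6.93 on the other arrays. Without that array all 5 calls were kept, with Bcl2 at -1.04 (adjusted p = 0.000963, limma), Apaf1 at -0.69 (0.0112), Bcl2l1 at 0.86 (0.017), Bid at -0.70 (0.0453) and Casp9 at -0.51 (0.0316).

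The rest of the pathway was read from 63 other genes in 6 lists, of which 54 had a probe set and 43 were tested. For age 14 rose and 7 fell, with a median of 0.09 log2 units, against 0.03 over all tested genes. Of all tested genes 23.4% were called higher and 17.7% lower at P14, the background for the counts by list below. Between VCN and the mean of LSO and MNTB, 0 of the 43 passed, against 0.653% of all tested genes.

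Among 9 genes of mitochondrial release factors and inhibitor of apoptosis proteins, 4 rose and 1 fell. Birc2, which encodes the inhibitor cIAP1, had P14 values of 10.28 in VCN, 10.35 in LSO and 10.37 in MNTB, against P3 values of 8.83 in VCN, 8.64 in LSO and 8.60 in MNTB. The nuclei lay close together at each age and far apart between ages. Birc2 rose by 1.64 ± 0.10 log2 units (adjusted p = 0.000386, limma) and passed in all 6 fits without 1 array. Birc5, whose product survivin also serves cell division, fell by 0.68 ± 0.17 (adjusted p = 0.0234), passing in 3 of those 6 fits. Diablo, which encodes an antagonist of the inhibitors, rose by 0.41 (adjusted p = 0.0117) but had -0.02 by the median of its probe sets, and passed in 2 of the 6 fits. Birc6 did not pass (-0.08, adjusted p = 0.457), although the median of its sets did (-0.60, adjusted p = 0.0106).

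Of 3 further anti-apoptotic genes 2 rose. Bcl2l2, encoding BCL-W, rose by 0.81 ± 0.08 log2 units (adjusted p = 0.00116, limma), yet the median of its probe sets gave -0.12 (adjusted p = 0.417). Tmbim6 rose by 0.19 (adjusted p = 0.0434) and passed in 1 of the 6 fits without 1 array.

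**Figure D4:**
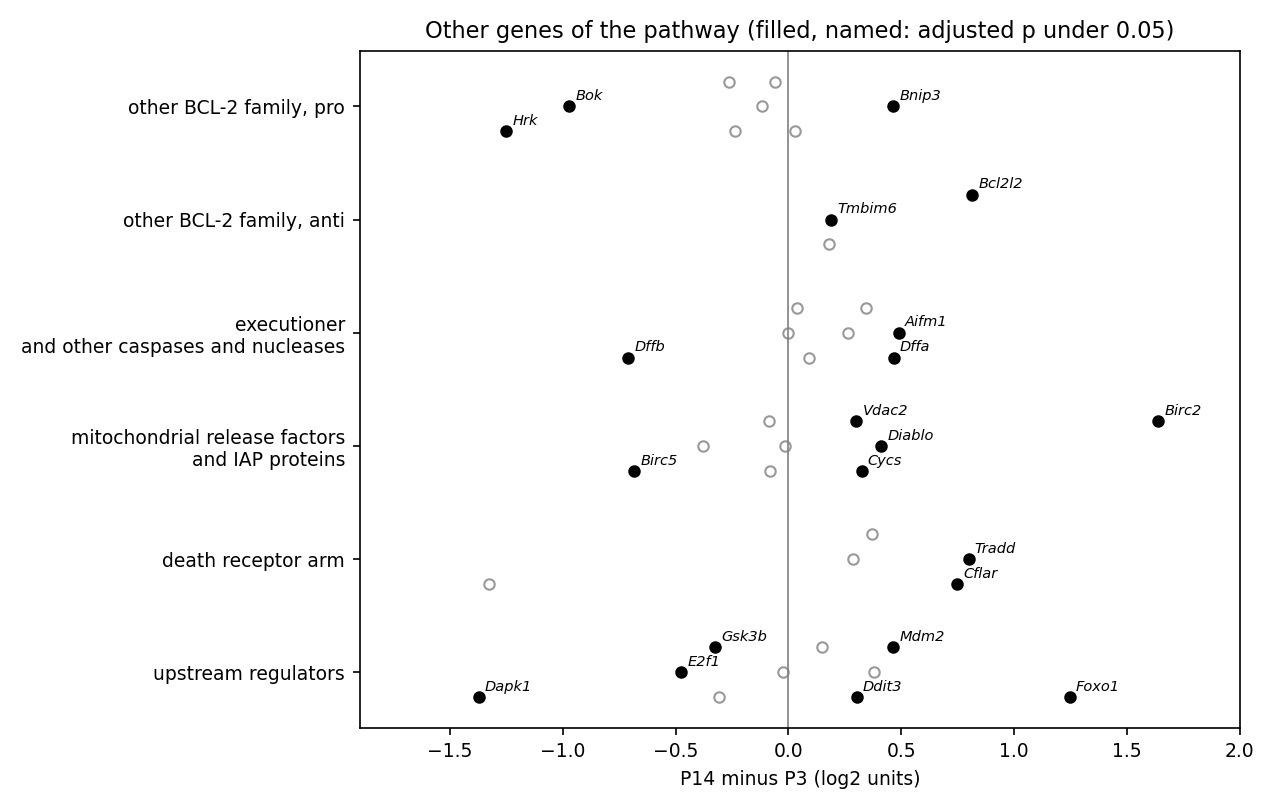
Difference of P14 minus P3 in log2 units (horizontal axis) for 43 tested genes of 6 lists of the cell death pathway, 1 point for each gene, with vertical offsets only for legibility. Filled and named points passed after adjustment, 14 to the right of 0 and 7 to the left, with Birc2 at 1.64 and Dapk1 at -1.37 the farthest.

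Of 8 other pro-apoptotic BCL-2 family genes, 2 fell and 1 rose. Hrk, a BH3-only gene of neurons, had P14 values of 7.90 in VCN, 8.04 in LSO and 5.93 in MNTB, against P3 values of 8.35 in VCN, 9.34 in LSO and 7.93 in MNTB. The ages overlapped, since MNTB at P3 lay below LSO at P14. Hrk fell by 1.25 ± 0.28 log2 units (adjusted p = 0.0155, limma). The call was lost without LSO at P14 or P3 (-1.22, adjusted p = 0.0661 and 0.0688) and without MNTB at P3 (-0.88, adjusted p = 0.0515). Bok, a relative of Bax and Bak1, fell by 0.97 ± 0.13 (adjusted p = 0.003), and Bad did not pass (-0.06, adjusted p = 0.664).

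Of 10 upstream regulators 3 rose and 3 fell. Dapk1, a death-associated kinase gene, fell by 1.37 ± 0.11 log2 units (adjusted p = 0.000687, limma). Foxo1, a transcription factor gene of the FOXO family, rose by 1.25 ± 0.12 (adjusted p = 0.000923). Both passed in all 6 fits without 1 array. Jun, which takes part in the death of deprived neurons, did not pass (0.38, adjusted p = 0.136). It passed without LSO at P14 or P3 (0.66, adjusted p = 0.0132 and 0.014, limma) and was at 0.23 without either MNTB array.

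Of 8 caspase and nuclease genes 2 rose and 1 fell. Dffb, the nuclease gene, fell by 0.71 ± 0.16 log2 units (adjusted p = 0.0165, limma), and Dffa, of its inhibitor, rose by 0.47 (adjusted p = 0.0261). Aifm1, of apoptosis-inducing factor, rose by 0.49 (adjusted p = 0.0404). Its difference was largest in VCN, at 0.90, and without VCN at P14 or P3 it was 0.29 and did not pass (adjusted p = 0.0872 and 0.0818, limma). Of the 6 fits without 1 array, Dffb passed in 4, Aifm1 in 1 and Dffa in 0.

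Of 5 genes of the death receptor arm, 2 rose and none fell. The 2 were Tradd and Cflar, and neither receptor gene described here, Tnfrsf1a or Ngfr, passed. Cflar rose by 0.75 (adjusted p = 0.00388, limma). Tradd, an adaptor of the TNF receptor, rose by 0.80 (adjusted p = 0.011, limma) but had 0.26 by the median of its probe sets (adjusted p = 0.266). Tnfrsf1a did not pass (0.37, adjusted p = 0.0967). Ngfr, the p75 neurotrophin receptor gene, had P14 values of 8.19 in VCN, 7.96 in LSO and 6.13 in MNTB, against P3 values of 8.08 in VCN, 10.18 in LSO and 7.99 in MNTB. VCN differed by 0.11 between the ages, while LSO and MNTB were lower at P14. The difference of -1.33 ± 0.43 did not pass (adjusted p = 0.0524). Without VCN at P14 or P3 Ngfr was at -2.04 and passed (adjusted p = 0.000385 and 0.000438, limma).

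Profiles over the 6 arrays were set against 3448 tested genes with a range of at least 1 log2 unit, and the 2 most alike are named for each gene that passed. For Bcl2 these were Etv4 (Pearson r = 0.998) and Vwa5b2 (r = 0.997), for Apaf1 Pcdh11x (r = 0.998) and Palm2 (r = 0.997), and for Casp9 Ddn (r = 0.996) and H2-Bl (r = 0.995). For Bid they were Fhl2 (r = 0.987) and Dut (r = 0.986), and for Bcl2l1 Gpld1 (r = 0.992) and the endothelial adhesion gene Pecam1 (r = 0.991). Pecam1 had P14 values of 7.33 in VCN, 7.84 in LSO and 7.50 in MNTB, against P3 values of 6.74 in VCN, 6.79 in LSO and 6.95 in MNTB. As for Bcl2l1 and Gpld1, LSO was the highest nucleus at P14 and MNTB at P3. Of other endothelial genes, Flt1 had this order too, while Cdh5 was highest in VCN at both ages and Slco1a4 in VCN at P14. The cell type that gave the Bcl2l1 signal was not tested. The points share 6 arrays and the age difference, and r is a description.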

How the data were processed

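The 6 arrays gave 1 value for each of 45101 probe sets. The deposited values are log2 expression values that the authors made with RMA, per the submitters' processing notes; the sources used here do not give its version, scan dates or batches. For each array 20 ng of RNA was amplified, per the labels' protocols. The number of arrays limits the precision.

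Of the probe sets 34945 named 1 gene, 932 several and 9160 none here, beside 64 control sets. A RefSeq table (GRCm38.p6) matched 34741 and changed 0 symbols. Genes averaging at or above the 40th percentile of probe sets (5.57 log2 units) entered limma 3.58.1 (R 4.3.3): additive terms for nucleus and age, an intensity trend, two-sided tests and a threshold of 0.05 after adjustment, with 2 residual and 4 prior degrees of freedom. The steps were tested on simulated data.

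The members and lists were chosen with earlier results of these data known. All members were named. From each other list up to 4 tested genes could be named, the 2 with the largest age difference and the 2 with the largest VCN difference in size. Gad1 and Cflar were named in the text beside these. Alternatives, 16 in all, each changed 1 step: the filter, the probe set of a gene, scaling, the variance model, the terms, a floor, or 1 array left out.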

Additional observations from a re-analysis of the deposited data

How the results depend on the processing

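Bcl2, Bcl2l1 and Apaf1 kept their direction and passed for age under all 16 alternatives. Bid did so under 9 of 14: beside the arrays named above, it did not pass with no filter (adjusted p = 0.053, limma), and it was not tested with a filter at the 60th percentile or with the median of probe sets. Casp9 did so under 13 of 16. Of the 8 genes, 0 passed between VCN and the other nuclei under any alternative. No paired analysis was possible because the labels tie no arrays to shared animals, and all carry the same number. The nucleus term already sets the ages against each other within each nucleus. Leaving it out, 5086 genes passed for age and the 5 calls were kept, with a standard error for Bcl2 of 0.15 in place of 0.09.

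For age 5351 genes passed, against 11135 with every probe set as its own feature and 3254 to 4785 without 1 array. For VCN minus the mean of LSO and MNTB 85 passed, against 50 with the filter at the 60th percentile, 0 with age left out (limma; 287 at an unadjusted p under 0.05) and 20 to 210 without 1 array. For VCN minus LSO 48 passed, against 29 with that filter, 75 with every probe set, 1 with age left out and 6 to 178 without 1 array. For VCN minus MNTB 83 passed, against 125 with every probe set, 0 with age left out (limma; 263 at an unadjusted p under 0.05) and 17 to 238 without 1 array. With age left out, the age change enters the error of the contrasts between nuclei. For Bcl2 in VCN minus the mean of LSO and MNTB, the standard error was then 0.54 in place of 0.10. Beyond this and fewer arrays or more features, the cause was not tested.

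Taking the median over all sets of a gene, these differences changed sign: for age Bcl2l11 (-0.040), Bak1 (0.073), Bcl2l2 (-0.12) and Diablo (-0.016); for VCN minus the mean of LSO and MNTB Bcl2 (0.05) and Bcl2l11 (-0.13); for VCN minus LSO Mcl1 (-0.0033) and Bcl2l11 (-0.42); and for VCN minus MNTB Bcl2 (0.21) and Casp9 (-0.054). Without _x_at sets Mcl1 was at -0.020 for VCN minus LSO. The cause was not tested.

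Without 1 array, other differences that had not passed spanned 0. For age Bak1 lay between -0.22 and 0.092 and Bad between -0.17 and 0.0039. For VCN minus the mean of LSO and MNTB Mcl1 lay between -0.023 and 0.11, Bid between -0.20 and 0.15, Apaf1 between -0.31 and 0.05, and Casp9 between -0.032 and 0.15. For VCN minus LSO Bcl2l1 lay between -0.56 and 0.078, Mcl1 between -0.062 and 0.071, Bcl2l11 between -0.22 and 0.26, Bid between -0.37 and 0.32, Bak1 between -0.32 and 0.10, Apaf1 between -0.36 and 7e-04, and Casp9 between -0.10 and 0.16. For VCN minus MNTB Bcl2 lay between -0.10 and 0.095, Bcl2l1 between -0.35 and 0.13, Bid between -0.25 and 0.20, Bak1 between -0.49 and 0.030, Apaf1 between -0.25 and 0.10, and Casp9 between -0.10 and 0.27.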
